A study of Mus musculus with 10 samples.

Results

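Rab GTPases and the Rab11-family interacting proteins (Rab11fip), the adaptors that bind Rab11, were described in mouse bone marrow cells that over-expressed full-length or mutant ASXL2. Members were the protein-coding genes whose symbol is Rab followed by a number and an optional letter, plus Rab11fip1 to Rab11fip5. Transcripts were summed per gene, and a gene was kept when its mean over all libraries was at least 0.5 TPM (a share of all transcripts, corrected for their length). Of 64 candidate genes, 53 were kept, among them 48 Rab genes and all 5 Rab11fip genes, out of 47311 genes in all. The floor left out Rab33a at 0.425 TPM and Rab25 at 0.370 TPM, the nearest below it, together with Rab39b, Rab42, Rab15, Rab3b, Rab3c, Rab30, Rab9b, Rab39 and Rab7b. The nearest kept genes were Rab11fip1 at 1.31 TPM and Rab34 at 1.64 TPM. Leaving a gene out did not hide a class, since none of the 11 reached 0.5 TPM as the mean of any class.

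PolyA RNA was sequenced from lineage-negative, Kit-positive marrow cells that carried wild-type (full-length) ASXL2, ASXL2 mutant 1, mutant 2 or mutant 3, or an empty vector, with 2 libraries in each of these 5 groups. All cells were grown with interleukin 3, interleukin 6 and stem cell factor, sorted for GFP and expanded before RNA extraction. Which changes the mutants carry, the vector, the strain and the age of the animals are not given in the labels. Separate cultures or animals are not named for the libraries of a group either, and the p-values therefore cover only a spread from library to library that may be technical. The 3 mutant groups were pooled into a class of 6 libraries, because the deposited name of 4 mutant libraries gives another mutant number than the label does, and for 2 of these also another batch. Each library belongs to batch 1 or batch 2 by its deposited name, with 5 libraries in each, and this batch was a term in every fit. The libraries held 52422686 to 79320702 estimated counts. Asxl2 itself was at 1384 and 992 CPM (read counts scaled to a common library size) with full-length ASXL2, at 790 to 1892 CPM with the mutants and at 107 and 111 CPM with the empty vector. Of 17 mast cell markers found in the files, 14 were at 10 TPM or more, and together they held 64424 and 77992 TPM with full-length ASXL2, 63820 to 72135 TPM with the mutants, and 71574 and 73429 TPM with the empty vector. Of 13 markers of lineage-positive cells, 11 were under 1 TPM, and Hbb-bt, a globin gene, was at 74 TPM. Among the 10 stem and progenitor markers, Kit averaged 894 TPM, Ly6a 1436 TPM and Cd34 254 TPM, while Flt3 and Slamf1 averaged less than 1 TPM each. Their sum was 2299 and 2142 TPM with full-length ASXL2, 2388 to 2991 TPM with the mutants, and 2715 and 2886 TPM with the empty vector, so it was lower in both full-length libraries than in any other library. The part of these marker levels in the results below was not tested, and in bulk RNA a change in the share of cells that express a gene and a change in the RNA per cell cannot be told apart.

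Rab proteins are small GTPases that sit on the membranes of the endoplasmic reticulum, the Golgi, endosomes, lysosomes and secretory granules. Each is switched on by an exchange factor (GEF) that loads GTP, switched off by a GTPase-activating protein (GAP), and held on its membrane by a prenyl anchor. In the GTP form it recruits effectors that move, tether or fuse vesicles. Rab11 marks the recycling endosome, from which receptors and integrins return to the cell surface, and the Rab11fip proteins link Rab11 vesicles to motors and tethers. In mast cells and other granulocytes, Rab27, Rab3, Rab37 and Rab44 are known for their part in granule release.

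The stretches just upstream of 4 of the 5 members that passed the test with both full-length and mutant ASXL2 are shown. They are the 250 bases before the annotated start in RefSeq GRCm38.p6, 5′ to 3′ on the strand of the gene, and capitals mark any match to the motifs searched on both strands. The GC box was searched as GGGCGG, the GATA motif as GATAA, the E-box as CACGTG, the AP-1 motif as TGANTCA, the RUNX motif as TGTGGT and the ETS motif as GGAAGT. The windows are chr6:85374635-85374884 on the minus strand for Rab11fip5, chr17:65772753-65773002 on the minus strand for Rab31, chr3:90213465-90213714 on the plus strand for Rab13, and chr1:90967668-90967917 on the minus strand for Rab17.
Rab11fip5: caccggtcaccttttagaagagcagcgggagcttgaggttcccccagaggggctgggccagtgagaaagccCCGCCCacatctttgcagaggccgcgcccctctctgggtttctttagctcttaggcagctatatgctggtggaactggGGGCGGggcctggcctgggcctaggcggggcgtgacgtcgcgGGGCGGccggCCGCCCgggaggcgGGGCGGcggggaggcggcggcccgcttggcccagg
Rab31: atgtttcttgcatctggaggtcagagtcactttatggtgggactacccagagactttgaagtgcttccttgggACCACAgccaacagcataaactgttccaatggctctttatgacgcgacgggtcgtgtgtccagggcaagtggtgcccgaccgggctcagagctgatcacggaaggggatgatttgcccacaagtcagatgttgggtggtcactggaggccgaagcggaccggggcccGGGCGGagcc
Rab13: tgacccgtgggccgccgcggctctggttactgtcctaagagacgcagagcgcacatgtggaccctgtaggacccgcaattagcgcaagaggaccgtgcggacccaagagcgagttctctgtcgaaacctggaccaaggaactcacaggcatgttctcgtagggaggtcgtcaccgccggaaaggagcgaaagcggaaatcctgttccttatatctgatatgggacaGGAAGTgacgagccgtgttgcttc
Rab17: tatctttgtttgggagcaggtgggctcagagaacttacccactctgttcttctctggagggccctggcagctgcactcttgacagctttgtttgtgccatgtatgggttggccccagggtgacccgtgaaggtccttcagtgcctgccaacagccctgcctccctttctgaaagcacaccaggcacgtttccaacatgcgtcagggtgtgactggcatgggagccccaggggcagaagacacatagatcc
The window of Rab11fip5 held 5 GC boxes and 21 CpG dinucleotides. The Rab31 window held 1 GC box, 1 RUNX match and 12 CpG dinucleotides. The Rab13 window held 1 ETS match and 20 CpG dinucleotides. The Rab17 window held none of the 6 motifs and 3 CpG dinucleotides, and its RefSeq start lies 1994 bases from the gene start in the GENCODE annotation. So the Rab11fip5 and Rab31 windows both held a GC box, and no motif was found in all 4 windows. Over 32851 windows of the same length the median was 6 CpG dinucleotides, and 32.74% held a GC box, 14.05% a RUNX match, 19.74% an ETS match, 22.58% a GATA match, 6.021% an E-box and 6.749% an AP-1 match. Of the 53 members 42 had a window, and 33 of these held a GC box in at least 1 of their windows. This count is per gene, while the shares above are of single windows, so they cannot be compared directly.

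The Rab set of these cells was led by genes of granules, lysosome-related organelles and endosomes, and the TPM ranges of its 5 leading genes overlapped between the classes. Rab44, a large Rab with calcium-binding EF hands, was the most abundant at a mean of 662 TPM over the 10 libraries. It was followed by Rab37, a granule Rab, at 269 TPM, by Rab7, the late endosome Rab, at 257 TPM, by Rab38, a Rab of lysosome-related organelles, at 238 TPM, and by Rab5c of the early endosome at 185 TPM. Rab1b, Rab1a, Rab27b, Rab11a, Rab11b and Rab19 also exceeded 100 TPM. A further 27 members lay between 10 and 100 TPM, and 15 lay under 10 TPM. Those 5 leading genes held 42.2 to 47.5% of the TPM of all members in each library. The members summed to 3460 and 3749 TPM with full-length ASXL2, to 3178 to 3855 TPM with the mutants, and to 3490 and 3792 TPM with the empty vector, so the classes overlapped. The 5 Rab11fip genes were low, together 23.2 and 24.8 TPM with full-length ASXL2, 13.5 to 19.5 TPM with the mutants, and 17.3 and 19.4 TPM with the empty vector. Here full-length ASXL2 stood above both other classes, which Rab11fip5 carried: without it the other 4 genes summed to 18.3 and 18.1 TPM with full-length ASXL2, 12.4 to 17.7 TPM with the mutants, and 16.9 and 18.8 TPM with the empty vector, so the full-length and empty vector libraries overlapped. TPM is a share, and the small RNA gene Mir6236 took 38966 to 109219 TPM of a library, so changes were tested on counts.

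**Figure D1:**
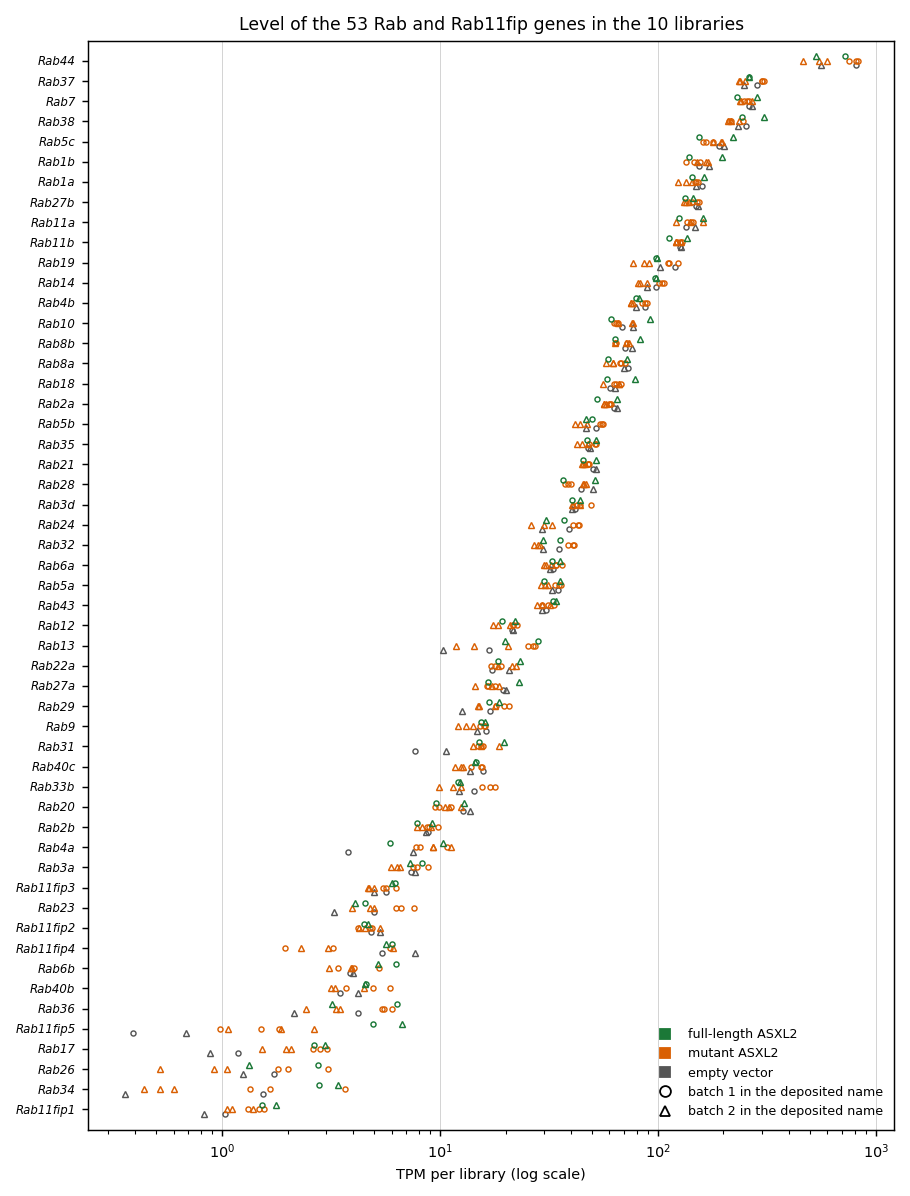
TPM of each of the 53 members in each of the 10 libraries on a log scale, genes ordered by mean TPM, with colour for the class and symbol for the batch in the deposited name. Points of abundant genes such as Rab37 (mean 269 TPM) lie close together. Those of Rab44 (mean 662 TPM) run from 463 to 827 TPM, and those of Rab11fip5, Rab34 and Rab26 near the bottom spread widely.

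Most members varied little. The ratio of the highest to the lowest CPM over the 10 libraries had a median of 1.36 and was under 1.5 for 35 of the 53 members. It was lowest for Rab14, a Rab of the Golgi and endosomes, at 1.10. It reached 3 or more for 6 members, all under 10 TPM, and was 18.9 for Rab11fip5, 13.6 for Rab34, 5.06 for Rab26, 4.29 for Rab11fip4, 3.44 for Rab4a and 3.19 for Rab17. Members also differed between the library batches. Between batch 2 and batch 1, 35 members (66.0%) differed, 24 higher and 11 lower in batch 2, where 52.4% of all genes tested did so (edgeR's quasi-likelihood test, Benjamini-Hochberg adjusted p under 0.05 over 17810 genes, the rule used for every call in this report).

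With full-length ASXL2, 7 members were higher than with the empty vector and 0 were lower, where 3.85% of all genes were called higher and 1.22% lower. These 7 were Rab11fip5, Rab34, Rab17, Rab31, Rab13, Rab11fip1 and Rab11fip3, so 13.2% of the members were called against 5.07% of all genes. With mutant ASXL2, 9 members were higher than with the empty vector and 0 were lower, where 6.82% of all genes were called higher and 3.99% lower. These 9 were Rab11fip5, Rab17, Rab31, Rab13, Rab11fip1, Rab4a, Rab36, Rab23 and Rab29, so 17.0% of the members were called against 10.8% of all genes. At an unadjusted p under 0.05 the members lower than with the empty vector numbered 0 with full-length ASXL2 and 2 with the mutants (Rab27a and Rab20), where 8.29% and 11.8% of all genes were, and DESeq2 called 0 lower in either comparison. Both comparisons use the same 2 empty vector libraries, and 5 members passed in both. The share of all genes that passed in both was not counted. The median log2 fold change of the members was 0.049 with full-length ASXL2 and 0.056 with the mutants, against -0.019 and -0.0058 over all genes.

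**Figure D2:**
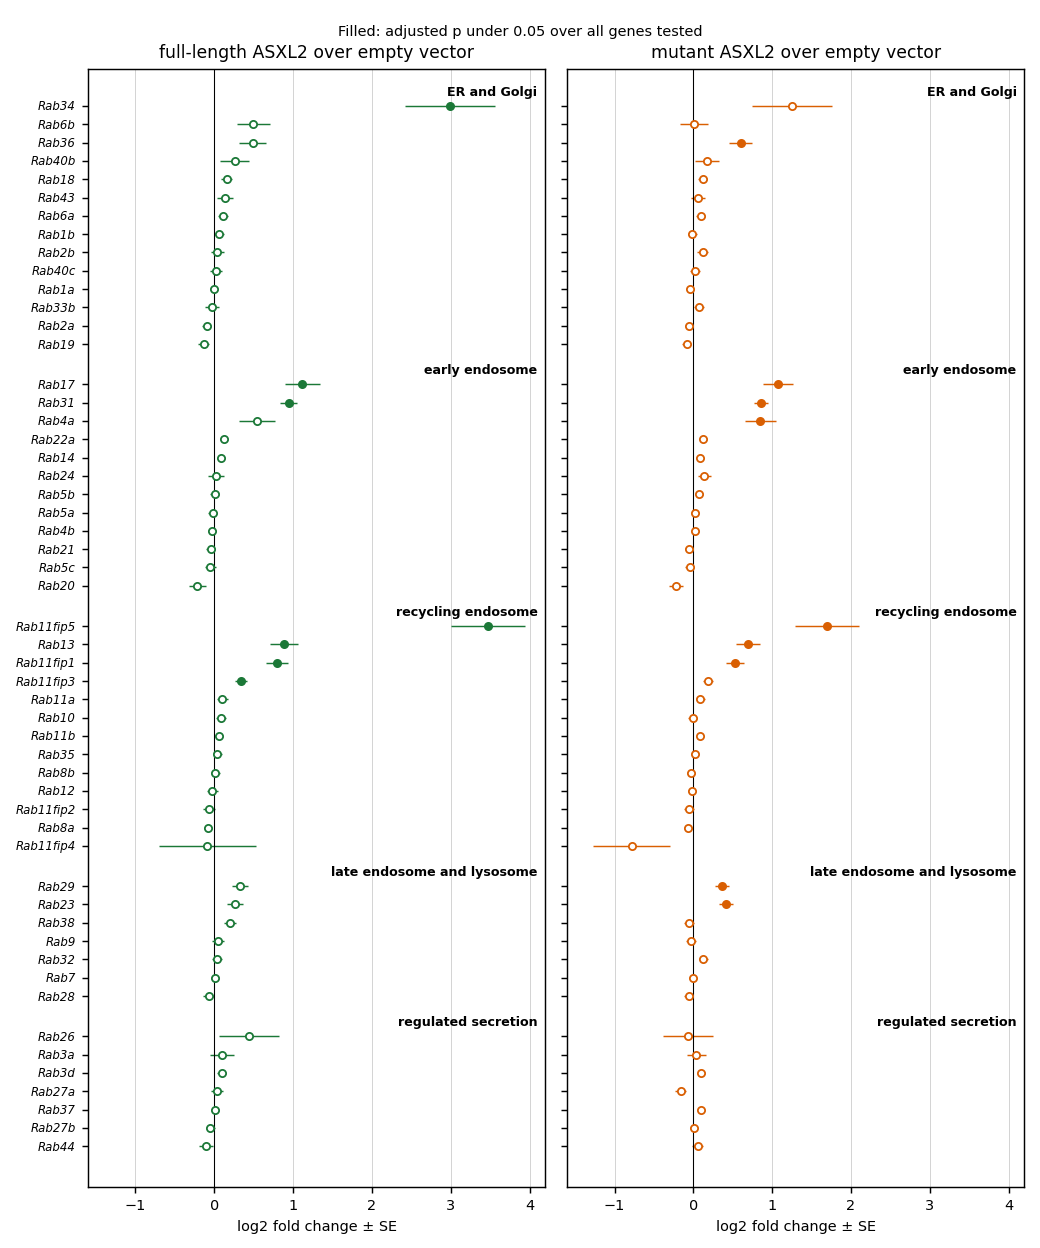
Log2 fold change ± SE of each of the 53 members relative to empty vector cells, for full-length ASXL2 on the left and mutant ASXL2 on the right, grouped by the role of the gene; filled points passed an adjusted p of 0.05 over all genes tested. Rab11fip5 and Rab34 lie far to the right with full-length ASXL2 (3.47 and 2.99), and the secretory genes at the bottom hold no filled point.

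The calls lay among the less abundant members. All 11 members called in either comparison averaged under 30 TPM, and the highest of them was Rab13 at 20.2 TPM. Of the 28 members at 30 TPM or more, none was called in either comparison, where 4.83% of all genes at that level were called with full-length ASXL2 and 11.9% with the mutants. At an unadjusted p under 0.05, 1 of these 28 passed with full-length ASXL2 and 3 with the mutants in edgeR's quasi-likelihood test, and DESeq2 called 0. Their log2 fold changes lay between -0.14 and 0.20 with full-length ASXL2 and between -0.084 and 0.14 with the mutants. Of the 25 members from 1 to 30 TPM, 7 were called with full-length ASXL2 and 9 with the mutants, all higher. At that level 6.7% of all genes were called with full-length ASXL2 (5.83% higher) and 13.6% with the mutants (9.75% higher), while at 30 TPM or more 1.84% and 3.68% were called higher. The level of 30 TPM was chosen after the values were seen.

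These counts rest on few control libraries and on the batch term. Without a batch term 1 member was called with full-length ASXL2 (Rab11fip5) and 0 with the mutants, with 9 higher at an unadjusted p under 0.05 for the mutants. Without empty vector replicate 1 the calls were 2 (Rab11fip1 and Rab31) and 1 (Rab31), and without empty vector replicate 2 they were 2 (Rab11fip5 and Rab31) and 5, in each case with full-length ASXL2 first. Without full-length replicate 2 the calls with full-length ASXL2 were 2 (Rab11fip5 and Rab31). Rab31 kept its call in 18 of 20 alternative analyses with full-length ASXL2 and in 19 of 20 with the mutants, and Rab11fip5 in 19 of 20 and 9 of 20. Within each batch taken alone, all 7 and all 9 called members were higher than with the empty vector. They were called on these same libraries with batch in the fit, so this agreement is not separate support.

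Of the recycling endosome genes, 3 of the 5 Rab11 effectors and Rab13 were called in at least 1 comparison, and the Rab11 genes themselves were not called. Among 13 tested recycling members, 4 were higher with full-length ASXL2 (Rab11fip5, Rab13, Rab11fip1 and Rab11fip3) and 3 with the mutants (Rab11fip5, Rab13 and Rab11fip1). Of all genes tested, 3.85% were called higher with full-length ASXL2 and 6.82% with the mutants. Rab11a had log2 fold changes of 0.10 ± 0.07 with full-length ASXL2 and 0.085 ± 0.057 with the mutants (SE), and Rab11b had 0.059 ± 0.047 and 0.082 ± 0.039. Rab8a, Rab8b, Rab10, Rab12 and Rab35, which serve recycling and transport to the surface, were not called either.

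Rab11fip5 (Rip11), a class I Rab11 effector known from apical membrane traffic, differed the most of all members. It was at 17.1 and 23.1 CPM with full-length ASXL2, at 3.18 CPM (lowest), 5.46 CPM (median) and 10.7 CPM (highest) with the mutants, and at 1.22 and 2.51 CPM with the empty vector. The 3 classes did not overlap, and the mutants lay between the other classes. Relative to the empty vector it rose 11.1-fold with full-length ASXL2 (log2 fold change 3.47 ± 0.47 SE, adjusted p = 0.0060) and 3.24-fold with the mutants (1.70 ± 0.40, adjusted p = 0.0347) in edgeR's quasi-likelihood test. Within batches the log2 difference was 3.70 and 3.15 with full-length ASXL2 and 1.81 and 1.39 with the mutants, for batch 1 and batch 2. The mutants against full-length ASXL2 gave -1.78 ± 0.31 with an adjusted p of 0.0695, short of the threshold, although all 6 mutant libraries lay below both full-length ones. The longer form of the gene was not favoured in any class, since the transcript ENSMUST00000060837 of 4035 bases held 67.4 to 81.6% of the TPM of the gene in each library and ENSMUST00000204087 of 6119 bases held the rest. Its GC-box-rich upstream window is printed above.

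Rab11fip1 (RCP), a class I effector that recycles integrins and growth factor receptors, moved by less but with little spread. It was at 8.40 and 9.39 CPM with full-length ASXL2, at 6.60, 7.51 and 8.00 CPM (lowest, median, highest) with the mutants, and at 5.46 and 4.82 CPM with the empty vector. Again the 3 classes did not overlap and the mutants lay in the middle. The log2 fold change was 0.79 ± 0.14 (SE, adjusted p = 0.0078) with full-length ASXL2 and 0.53 ± 0.12 (adjusted p = 0.0158) with the mutants in edgeR's quasi-likelihood test, and the mutants against full-length ASXL2 gave -0.27 ± 0.11 (adjusted p = 0.379). Rab11fip1 overlaps 4933416M07Rik on the opposite strand, a gene at 0.0109 TPM, and without a stated strand setting their reads cannot be told apart.

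Rab11fip3 (Eferin), a class II effector that also binds Arf6 and acts in cytokinesis, was called with full-length ASXL2 only, at a small size. It was at 22.1 and 20.2 CPM with full-length ASXL2, at 18.2, 18.8 and 19.7 CPM (lowest, median, highest) with the mutants, and at 16.6 and 16.8 CPM with the empty vector. The classes did not overlap here either. The log2 fold change was 0.34 ± 0.07 (SE, adjusted p = 0.0239) with full-length ASXL2 and 0.18 ± 0.06 (adjusted p = 0.0846) with the mutants in edgeR's quasi-likelihood test, and between the mutants and full-length ASXL2 it was -0.16 ± 0.06 (adjusted p = 0.332). The difference between the classes of ASXL2 is thus not shown by this call. Rab11fip3 overlaps 1700022N22Rik on the opposite strand, at 0.3815 TPM.

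Rab11fip2, a class I effector that binds myosin Vb, was not called. It was at 13.6 and 15.8 CPM with full-length ASXL2, at 13.2 to 16.4 CPM with the mutants, and at 14.8 and 16.0 CPM with the empty vector, so the classes overlapped, and its log2 fold changes were -0.068 ± 0.075 and -0.052 ± 0.061 (SE). Rab11fip4, the other class II effector, was the most uneven of the 5 among the mutants. It was at 20.6 and 21.7 CPM with full-length ASXL2, at 6.28, 10.4 and 24.5 CPM (lowest, median, highest) with the mutants, and at 18.7 and 26.9 CPM with the empty vector. By label, the 2 libraries of mutant 1 were at 6.28 and 18.7 CPM, those of mutant 2 at 10.3 and 8.52 CPM, and those of mutant 3 at 24.5 and 10.4 CPM. Thus 4 mutant libraries lay below every full-length and empty vector library and 2 lay among them, and both of these 2 carry mutant 2 in their deposited name while their labels read mutant 1 and mutant 3. The pooled mutants had a log2 fold change over the empty vector of -0.78 ± 0.49 (SE, adjusted p = 0.381). Without the 4 libraries whose name and label differ it was -1.46 ± 0.17 (adjusted p = 0.0177, edgeR's quasi-likelihood test). Those 4 include both high mutant libraries, and the 2 mutant libraries left were at 6.28 and 10.4 CPM. The second value therefore depends on which libraries were left out. Its 2 expressed transcripts, ENSMUST00000017783 and ENSMUST00000155381, were both low in the same 4 libraries.

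**Figure D3:**
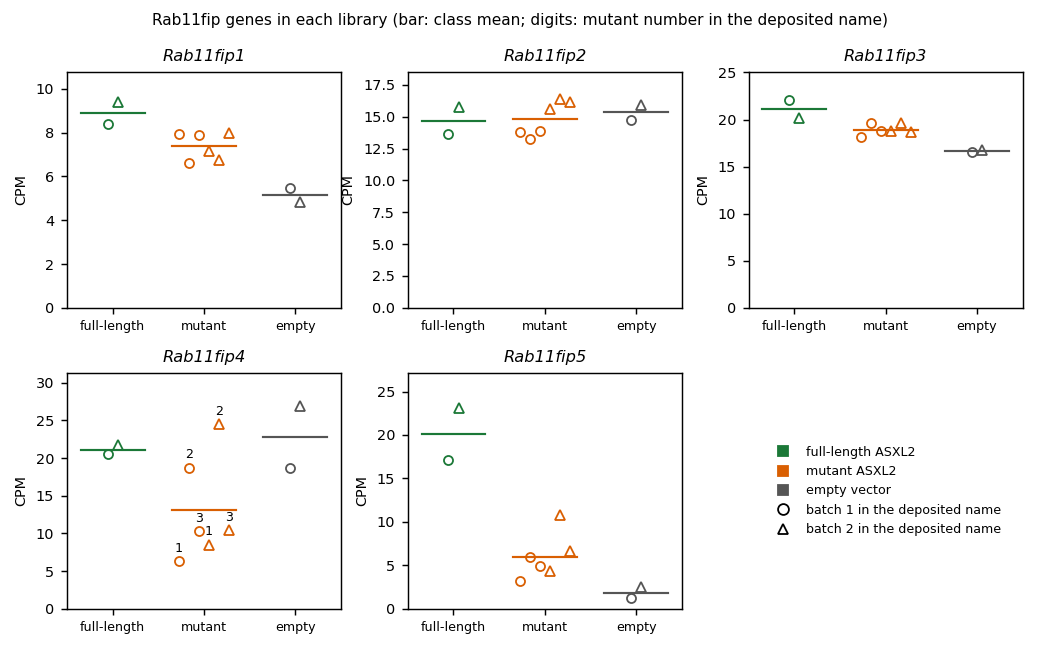
CPM of each Rab11fip gene in each library, with full-length ASXL2, mutant ASXL2 and the empty vector from left to right, a bar at the class mean and symbols for the batch in the deposited name; digits beside the Rab11fip4 points give the mutant number in that name. Rab11fip5 and Rab11fip1 step down from full-length ASXL2 over the mutants to the empty vector, and Rab11fip4 splits the mutants into 4 low and 2 high libraries.

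Rab13, a Rab of surface recycling and tight junctions, was higher with either form of ASXL2 in both batches. It was at 21.2 and 14.4 CPM with full-length ASXL2, at 9.76, 16.5 and 19.5 CPM (lowest, median, highest) with the mutants, and at 11.2 and 7.97 CPM with the empty vector. The full-length libraries lay above both empty vector libraries, and the lowest mutant library lay between these, since batch 2 was lower in every class. Relative to the empty vector the log2 fold change was 0.89 ± 0.18 (SE, adjusted p = 0.0204) with full-length ASXL2 and 0.69 ± 0.15 (adjusted p = 0.0180) with the mutants in edgeR's quasi-likelihood test. Inside batch 1 the log2 differences were 0.91 and 0.71, and within batch 2 they were 0.85 and 0.64. The transcript ENSMUST00000065418 held 97.4% of its TPM.

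Of 12 early endosome members, 2 were called with full-length ASXL2 (Rab17 and Rab31) and 3 with the mutants (Rab17, Rab31 and Rab4a). All were higher, where 3.85% and 6.82% of all genes were called higher. Rab31, which carries cargo between the Golgi and endosomes, had the smallest adjusted p of all members. It was at 39.9 and 50.1 CPM with full-length ASXL2, at 35.8, 40.3 and 51.2 CPM (lowest, median, highest) with the mutants, and at 18.4 and 28.8 CPM with the empty vector. Every library with ASXL2 lay above both empty vector libraries, and the 2 forms overlapped. On the log2 scale the fold change was 0.95 ± 0.11 (SE, adjusted p = 0.0010) with full-length ASXL2 and 0.86 ± 0.09 (adjusted p = 0.0004) with the mutants in edgeR's quasi-likelihood test, a fold of 1.93 and 1.81. The mutants against full-length ASXL2 gave -0.090 ± 0.086, which passed no test. A single protein-coding transcript, ENSMUST00000070673, held all of its TPM.

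Each member was placed in a single role group, and the group counts depend on this for Rab17 and Rab4a, which also serve recycling. Rab17, known from recycling and transcytosis in epithelia, was a low member at a mean of 2.17 TPM. It was at 2.85 and 2.67 CPM with full-length ASXL2, at 1.98, 2.66 and 3.68 CPM (lowest, median, highest) with the mutants, and at 1.41 and 1.15 CPM with the empty vector. Both forms lay above the empty vector in every library and overlapped with each other. The log2 fold change was 1.11 ± 0.22 (SE, adjusted p = 0.0153) with full-length ASXL2 and 1.07 ± 0.19 (adjusted p = 0.0056) with the mutants in edgeR's quasi-likelihood test. Rab4a, the Rab of fast recycling, was at 5.82 and 9.79 CPM with full-length ASXL2, at 7.06, 10.2 and 11.4 CPM (lowest, median, highest) with the mutants, and at 3.31 and 7.62 CPM with the empty vector. Its classes overlapped, and batch 2 was higher than batch 1 by 0.62 ± 0.14 (log2, SE). It passed with the mutants (log2 fold change 0.85 ± 0.19, adjusted p = 0.0207) and not with full-length ASXL2 (0.54 ± 0.23, adjusted p = 0.223), and the mutants against full-length ASXL2 gave 0.30 ± 0.18 (adjusted p = 0.597) in edgeR's quasi-likelihood test. The 3 copies of Rab5, which drive early endosome fusion, stayed within a log2 fold change of -0.048 (Rab5c, full-length ASXL2) and 0.075 (Rab5b, mutants) and were not called. Rab20 had the lowest log2 fold changes of the group, -0.22 ± 0.11 with full-length ASXL2 and -0.22 ± 0.09 with the mutants, which did not pass (adjusted p = 0.316 and 0.140).

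Of 14 members of the endoplasmic reticulum and Golgi, 1 was called with full-length ASXL2 (Rab34) and 1 with the mutants (Rab36). The shares of all genes called were 5.07% and 10.8%, so 1 call among 14 genes says little about the group. Rab34, which positions lysosomes at the Golgi and acts in cilium formation, was at 2.73 and 2.10 CPM with full-length ASXL2, at 0.20, 0.59 and 1.47 CPM (lowest, median, highest) with the mutants, and at 0.40 and 0.23 CPM with the empty vector. Full-length ASXL2 stood above all other libraries, and the mutants overlapped the empty vector. It rose 7.96-fold with full-length ASXL2 (log2 fold change 2.99 ± 0.57 SE, adjusted p = 0.0160). With the mutants the log2 fold change was 1.26 ± 0.51 (adjusted p = 0.156), and the mutants against full-length ASXL2 gave -1.74 ± 0.39 (adjusted p = 0.103), again by edgeR's quasi-likelihood test. The TPM of Rab34 hides part of this, since it includes a retained-intron transcript of 352 bases (ENSMUST00000154542) that was uneven between libraries. This transcript was at 0.0416 and 1.33 TPM with full-length ASXL2, at 0 to 2.34 TPM with the mutants, and at 1.23 and 0.124 TPM with the empty vector. Its class means were 0.687, 0.633 and 0.675 TPM in that order. The protein-coding ENSMUST00000002128 was at 1.97 and 1.57 TPM with full-length ASXL2, at a mean of 0.358 TPM with the mutants and at 0.133 and 0.0119 TPM with the empty vector.

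Rab36, which shares lysosome positioning with Rab34, was at 11.03 and 5.16 CPM with full-length ASXL2, at 5.36, 8.65 and 10.5 CPM (lowest, median, highest) with the mutants, and at 6.95 and 4.28 CPM with the empty vector. The classes overlapped because batch 1 was high in each of them, and within batches each form lay above the empty vector. The log2 fold change was 0.60 ± 0.14 (SE, adjusted p = 0.0222) with the mutants and 0.49 ± 0.17 (adjusted p = 0.140) with full-length ASXL2 in edgeR's quasi-likelihood test. The Rab1, Rab2 and Rab6a genes, which run transport between the endoplasmic reticulum and the Golgi, had log2 fold changes from -0.098 to 0.12 and were not called. Rab6b was not called either, at 0.50 ± 0.21 (log2, SE, adjusted p = 0.247, edgeR's quasi-likelihood test) with full-length ASXL2 and 0.0078 ± 0.1751 with the mutants.

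Of 7 late endosome and lysosome members, 0 were called with full-length ASXL2 and 2 with the mutants (Rab29 and Rab23). Over all genes 5.07% and 10.8% were called, so few calls among 7 genes say little. With full-length ASXL2, 3 had an unadjusted p under 0.05 (Rab23, Rab29 and Rab38) in edgeR's quasi-likelihood test, and DESeq2 called 0. Rab29, which recruits the kinase LRRK2, was at 13.3 and 14.1 CPM with full-length ASXL2, at 12.9, 13.7 and 15.3 CPM (lowest, median, highest) with the mutants, and at 11.5 and 10.3 CPM with the empty vector. Every ASXL2 library lay above the empty vector ones. By log2 fold change it rose by 0.36 ± 0.09 (SE, adjusted p = 0.0218) with the mutants, while full-length ASXL2 gave 0.33 ± 0.10 (adjusted p = 0.102) in edgeR's quasi-likelihood test. Rab23, a negative regulator of Hedgehog signalling, was at 7.06 and 6.44 CPM with full-length ASXL2, at 6.63, 7.61 and 8.10 CPM (lowest, median, highest) with the mutants, and at 6.20 and 5.11 CPM with the empty vector. Here too each ASXL2 library lay above the empty vector ones, and in edgeR's quasi-likelihood test the mutants were higher by 0.41 ± 0.09 (log2, SE, adjusted p = 0.0116), while full-length ASXL2 gave 0.26 ± 0.10 (adjusted p = 0.190). For these genes the log2 difference between the mutants and full-length ASXL2 was 0.035 ± 0.084 for Rab29 and 0.15 ± 0.08 for Rab23, and neither passed.

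Rab7, the Rab of late endosome fusion, was at 248 and 299 CPM with full-length ASXL2, 248 to 294 CPM with the mutants, and 253 and 291 CPM with the empty vector, and was not called. Rab32, a partner of Rab38 in lysosome-related organelles, had log2 fold changes of 0.036 ± 0.066 with full-length ASXL2 and 0.13 ± 0.05 with the mutants and was not called. Rab38 was at 273 and 331 CPM with full-length ASXL2, at 219, 259 and 279 CPM (lowest, median, highest) with the mutants, and at 256 and 268 CPM with the empty vector. Both full-length libraries lay above both empty vector libraries, while the mutants overlapped either class. The mutants against full-length ASXL2 gave -0.25 ± 0.06 (SE, adjusted p = 0.128), and full-length ASXL2 against the empty vector gave 0.20 ± 0.08 (adjusted p = 0.198), by edgeR's quasi-likelihood test.

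**Figure D4:**
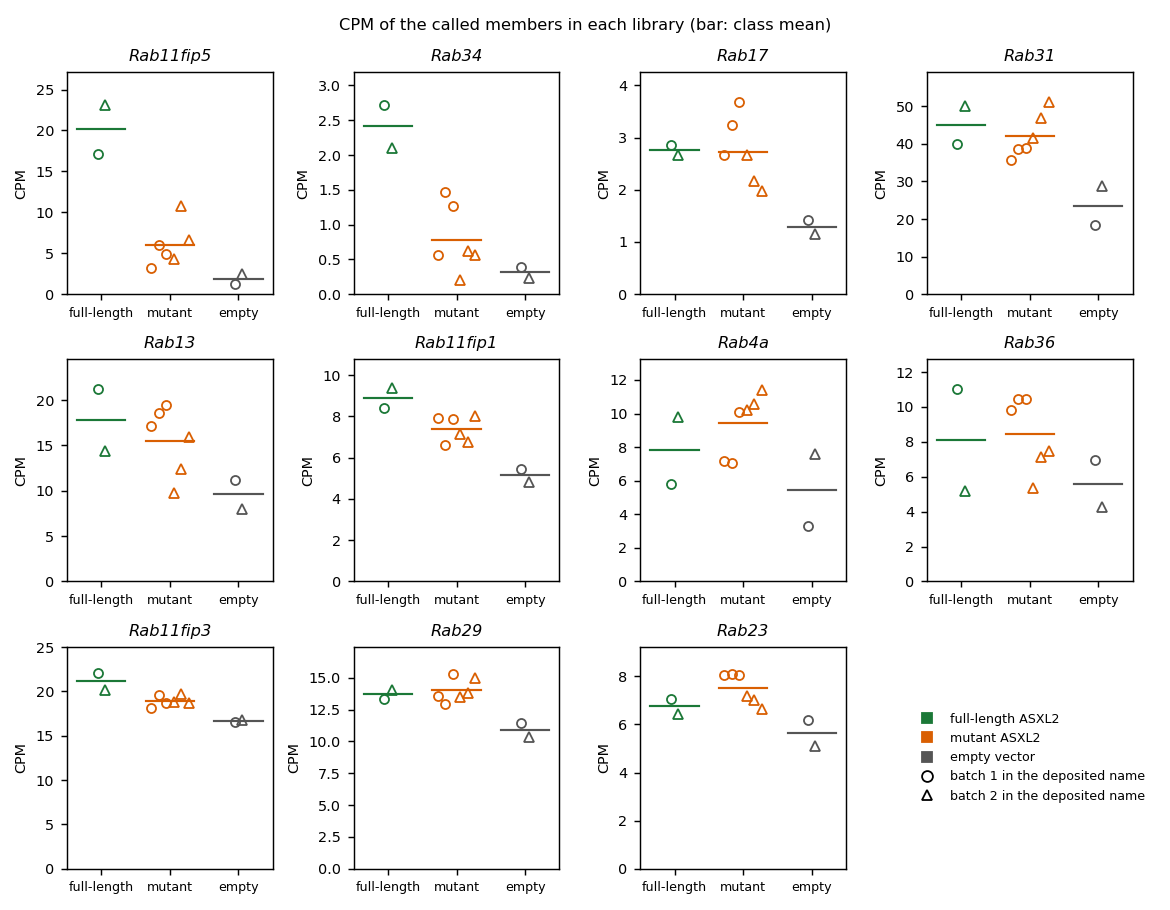
CPM of the 11 members called in either comparison with the empty vector, in each library, with full-length ASXL2, mutant ASXL2 and the empty vector from left to right, a bar at the class mean and symbols for the batch in the deposited name. For Rab31, Rab17, Rab29 and Rab23 every library with ASXL2 lies above both empty vector libraries, and for Rab4a and Rab36 the classes overlap and the batches lie apart.

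None of the 7 members of regulated secretion was called in either comparison by edgeR's quasi-likelihood test or by DESeq2, where 5.07% of all genes were called with full-length ASXL2 and 10.8% with the mutants, so that few calls among 7 genes say little. At an unadjusted p under 0.05, 0 of them passed with full-length ASXL2 and 3 with the mutants (Rab27a, Rab37 and Rab3d). Over all genes, 10.7% were higher and 8.29% lower at that p with full-length ASXL2, and 13.5% and 11.8% with the mutants. Rab44 was at 1639 and 1133 CPM with full-length ASXL2, at 1194, 1557 and 1739 CPM (lowest, median, highest) with the mutants, and at 1708 and 1251 CPM with the empty vector. The lower value of each class came from batch 2, where Rab44 was 0.755 times its batch 1 level, and the classes overlapped. Rab37 was at 396 and 392 CPM with full-length ASXL2, at 403 to 430 CPM with the mutants, and at 385 and 396 CPM with the empty vector, and its log2 fold change with the mutants of 0.093 ± 0.042 (SE) did not pass (adjusted p = 0.196). Rab27b had log2 fold changes of -0.051 ± 0.056 and 0.0063 ± 0.0455 with full-length and mutant ASXL2, and Rab3d had 0.092 ± 0.054 and 0.099 ± 0.045. Rab27a was at 36.9 and 49.5 CPM with full-length ASXL2, at 32.4 to 43.1 CPM with the mutants, and at 38.4 and 45.5 CPM with the empty vector, and the mutants gave -0.16 ± 0.07 (log2, SE, adjusted p = 0.151, edgeR's quasi-likelihood test). Rab26 was low and uneven, with a log2 fold change of 0.44 ± 0.38 with full-length ASXL2. The summed TPM of the mast cell markers, not all of which are granule genes, overlapped between the classes as given above.

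Between the mutants and full-length ASXL2, 0 members were called higher and 0 lower, where 0.185% of all genes were called higher and 0.213% lower. At an unadjusted p under 0.05, 0 were higher and 7 were lower with the mutants (Rab11fip5, Rab34, Rab38, Rab27a, Rab6b, Rab11fip3 and Rab11fip1), where 5.61% of all genes were higher and 5.63% lower. DESeq2 called 3 members lower (Rab11fip5, Rab34 and Rab38). The mutant libraries lay below both full-length libraries without overlap for 5 members (Rab11fip5, Rab34, Rab11fip1, Rab11fip3 and Rab9) and above both for 2 (Rab37 and Rab27b), where 2.78% and 2.9% of all genes did so. Without mutant 3 replicate 1, the mutant library with the highest Rab11fip5 level, 1 member (Rab11fip5) was called lower. That library lay nearest the full-length ones, so leaving it out widens this difference. Leaving out any other single library called 0 members lower. A miss of the threshold does not show that the forms act alike: for Rab11fip5 the difference of -1.78 has an SE of 0.31.

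The library ranges of the ASXL2 cells were also set against those of the empty vector. With full-length ASXL2, 14 members lay above and 1 (Rab19) below both empty vector libraries, where 15.8% and 13.7% of all genes did so. With the mutants, 9 members lay above and 0 below, where 9.06% and 5.39% of all genes did so. Besides members called in the same comparison, these included Rab14, Rab23, Rab29, Rab38, Rab40b, Rab43 and Rab6b with full-length ASXL2, and Rab14, Rab37 and Rab11fip3 with the mutants.

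Genes grouped with Rab proteins by topic were read from 9 lists with 181 distinct genes tested. A listed gene need not bind the Rab of its list, and some genes are in more than 1 list. With full-length ASXL2, 19 were higher and 1 was lower than with the empty vector, and with the mutants 24 were higher and 3 were lower. Of all genes tested, full-length ASXL2 had 3.85% higher and 1.22% lower, and the mutants had 6.82% higher and 3.99% lower, and each list below is to be read against these. Of 39 listed exchange factors, 5 were higher with full-length ASXL2 and 6 with the mutants. This list leaves out the subunits of the TRAPP exchange factor complex, which are in the Golgi list. Ankrd27 (Varp), the exchange factor of Rab21 and a partner of Rab32 and Rab38, averaged 108 CPM with full-length ASXL2, 112 CPM with the mutants and 86.7 CPM with the empty vector. In edgeR's quasi-likelihood test it was higher by 0.31 ± 0.07 (log2, SE, adjusted p = 0.0391) with full-length ASXL2 and by 0.36 ± 0.06 (adjusted p = 0.0050) with the mutants. Dennd5a, an exchange factor of Rab39, averaged 177 CPM with full-length ASXL2, 171 CPM with the mutants and 141 CPM with the empty vector, and was higher in both comparisons. Sbf2, C9orf72 and Dennd2d were called in both comparisons too, and Rab3ip (Rabin8), an exchange factor of Rab8, with the mutants (0.41 ± 0.12). Sbf2 and C9orf72 were under 1.5 CPM in every class mean.

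Of 39 GTPase-activating proteins, 4 were higher with full-length ASXL2 (Tbc1d24, Tbc1d16, Tbc1d14 and Grtp1) and 4 with the mutants (Tbc1d30, Tbc1d24, Rabgap1l and Tbc1d16). Tbc1d24 averaged 48.0 CPM with full-length ASXL2, 39.6 CPM with the mutants and 29.1 CPM with the empty vector, which is 0.72 ± 0.08 (log2, SE, adjusted p = 0.0008) and 0.44 ± 0.07 (adjusted p = 0.0026) above the empty vector in edgeR's quasi-likelihood test. Tbc1d16, a GAP of Rab4, averaged 7.77 CPM with full-length ASXL2, 5.37 CPM with the mutants and 2.61 CPM with the empty vector. Of 14 genes of Rab prenylation and membrane cycling, 1 passed the test, lower in both comparisons, Yipf2 at -0.28 ± 0.07 and -0.22 ± 0.06.

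Of 13 tested genes listed with Rab27 and Rab3, 2 were higher in each comparison, and all 3 of these genes were under 10 CPM in each class mean. Rims3 averaged 8.89 CPM with full-length ASXL2, 6.78 CPM with the mutants and 3.28 CPM with the empty vector, with log2 fold changes of 1.42 ± 0.14 and 1.05 ± 0.12. Sytl5 averaged 4.77 CPM with full-length ASXL2, 1.02 CPM with the mutants and 0.473 CPM with the empty vector, and was called with full-length ASXL2 (3.22 ± 0.57, adjusted p = 0.0131), while the mutants against full-length ASXL2 gave -2.09 ± 0.38 (adjusted p = 0.0665) in edgeR's quasi-likelihood test. Sytl4 was called with the mutants (2.08 ± 0.42). Unc13d (Munc13-4), the granule priming factor that binds Rab27, averaged 235 CPM with full-length ASXL2, 234 CPM with the mutants and 231 CPM with the empty vector, and was not called.

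Of 13 tested partners of Rab11 other than Rab11fip, 1 was higher with full-length ASXL2 (Ehd1) and 3 with the mutants (Ehd1, Exoc6b and Zfyve27). Ehd1, an ATPase that shapes recycling endosomes, averaged 91.9 CPM with full-length ASXL2, 81.6 CPM with the mutants and 65.7 CPM with the empty vector, which is 0.48 ± 0.08 (log2, SE, adjusted p = 0.0076) and 0.31 ± 0.07 (adjusted p = 0.0162) above the empty vector in edgeR's quasi-likelihood test. Of 13 genes listed with Rab5, 2 were higher with full-length ASXL2 (Hip1r and Zfyve9) and 4 with the mutants (these and Appl2 and Rabep1). Rabep1 (Rabaptin-5), which binds Rab5 and Rab4, averaged 133 CPM with full-length ASXL2, 133 CPM with the mutants and 114 CPM with the empty vector. Of 19 tested genes listed with Rab7, 2 were higher with full-length ASXL2 (Osbpl1a and Rilpl1) and 2 with the mutants (Rilpl1 and Rubcnl). Of 11 tested genes listed with Rab8, Rab10 and Rab35, 2 were higher with full-length ASXL2 (Acap2 and Rilpl1) and 2 with the mutants (Sytl4 and Rilpl1). Rilpl1 is counted both here and in the Rab7 list. The Golgi list held TRAPP subunits (Trappc genes) beside effectors. Of its 26 tested genes, 2 were higher with full-length ASXL2 (Erc1 and Bicd1). With the mutants 3 were higher (Erc1, Bicd1 and Trappc6a) and 2 lower (Golgb1 and Trappc11). Erc1 (ELKS), which binds Rab6, averaged 12.4 CPM with full-length ASXL2, 12.2 CPM with the mutants and 5.01 CPM with the empty vector, a log2 fold change of 1.33 ± 0.13 and 1.29 ± 0.12.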

How the data were processed

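PolyA RNA-seq tables of 10 libraries were used. The submitters' processing notes name kallisto, DESeq2 and mm10 without versions or roles. Per the file headers the authors deposited an estimated count and a TPM value for each of 115088 transcripts; the index and strand setting are not stated there, and reads of near-identical copies (such as Rab processed pseudogenes) are shared by estimate. Transcripts were summed per gene by GENCODE M21 (114200 matched, 888 did not), and the deposited estimated counts were rounded after summing.

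Genes were tested with the robust quasi-likelihood test of edgeR 4.0.16 (R 4.3.3) after TMM scaling and filterByExpr with a minimum count of 10, which kept 17810 genes and all 53 members. All 10 libraries entered 1 fit with 3 classes and the batch of the deposited name as a block, with Benjamini-Hochberg adjustment at 0.05 over all genes. Deviations from class means correlated at 0.352 to 0.549 in the 14 pairs of libraries that share this batch across classes; in a class of 2 the deviations mirror each other, so the other pairs add nothing. The pairing comes from the batch in the deposited names. SE is the log2 fold change over the root of its F. Within-batch differences used log2(CPM + 0.1). DESeq2 1.42.0 and limma 3.58.1 were alternatives. The script was tested on simulated counts. Groups follow the labels.

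Members and lists were chosen with earlier results of these data known. Named are members called in any comparison, the Rab11fip genes, the most abundant members, selected secretory, endosomal and Rab11 genes, those nearest the floor, and up to 3 called genes per list and comparison; Rab9, Rab6b, Rab14, Rab19, Rab20, Rab26, Rab40b, Rab43, other uncalled members and the uncalled Unc13d were added after their values were seen. No list was tested as a set.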

Additional observations from a re-analysis of the deposited data

How the results depend on the processing

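Of 1680 member values, 84 under each of 20 alternatives, 1574 stayed on their side of the threshold, 97 lost the call, 9 gained one and 0 called values reversed. Among the 1574, 99 uncalled values changed sign. The cause was not tested. Full-length ASXL2 against the empty vector called 903 genes, and 134 without a replicate block, 129 with the batch of the labels as block, 1517 by DESeq2, 259 and 321 by limma on log2(TPM + 1) and log2(TPM + 0.1), 427 with only these classes fitted, 446 without the 4 libraries named for another mutant, and 285 to 1047 with a library left out. Members called higher were 7, against 1 without a replicate block, 1 with the label block, 3 and 3 by limma, 4 with only these classes, and 2 to 7 with a library left out. Mutants against the empty vector called 1925 genes, and 311 without a replicate block, 335 with the label block, 707 and 829 by limma, 567 without the 4 libraries, and 494 to 2042 with a library left out. Members called higher were 9, against 0, 1 (Rab31), 3 and 4, 3, and 1 to 10 in the same order; 1 member (Rab11fip4) was lower without the 4 libraries. Mutants against full-length ASXL2 called 71 genes, and 0 without a replicate block (720 at an unadjusted p under 0.05), 1 with the label block, 499 by DESeq2, 183 without a filter on low counts, 23 and 17 by limma, 7 without the 4 libraries, and 2 to 111 with a library left out. Members lower were 0, against 3 by DESeq2, 1 without a filter (Rab38), 1 by limma on log2(TPM + 1) (Rab11fip5), and 0 to 1 with a library left out. Members differing between batches were 35, against 0 by the batch of the labels, 20 and 21 by limma, and 31 to 37 with a library left out. A floor of 0.1 or 1 TPM left the counts of called members as they were. Uneven or low genes such as Rab11fip4 and Rab34 have wide errors. Their SE was 0.62 and 0.57 (log2) in the comparison of full-length ASXL2 and empty vector cells, with 2 libraries in each of these classes. The 3 classes share an estimate of spread for each gene, and for Rab11fip4 the pooled mutants spread the most, from 6.28 to 24.5 CPM.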

Other observations

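Some members also differed between the batches of the deposited names, among them 1 of the 5 Rab11fip genes and 4 of the 7 members of regulated secretion. Batch 2 minus batch 1 gave log2 differences from -1.001 for Rab26, a Rab of granule maturation, to 0.64 for Rab11fip5, of which the first passed the test (adjusted p = 0.0060) and the second did not (adjusted p = 0.0796, edgeR's quasi-likelihood test). Rab36 (-0.73 ± 0.11 SE), Rab13 (-0.53 ± 0.11) and Rab44 (-0.41 ± 0.06) were lower in batch 2. Rab10 (0.43 ± 0.04), Rab1b (0.39 ± 0.04), Rab5c (0.39 ± 0.04) and Rab28 (0.38 ± 0.04) were higher in it. Rab37 and Rab27b, which are also abundant, were not called between the batches. Of the 11 members called in a comparison with the empty vector, 7 differed between the batches, a share close to the 66.0% of all members and the 52.4% of all genes.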
